A study of Mus musculus with 2 samples.

Results

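The 60 genes described here encode the subunits of ligand-gated neurotransmitter receptors, the ion channels that open when a transmitter binds them. The rule that picks them out of 31784 gene rows reads gene symbols alone, and they divide into 19 subunits for GABA, 5 for glycine, 18 for glutamate, 16 for acetylcholine and 2 for serotonin. All 60 carried a current mouse RefSeq symbol. Pituitary RNA of Brdt-/- mice was set against that of wild-type mice on 2 two-colour Agilent microarrays. Each array paired 1 pool per genotype, each pool held RNA of 3 mice, and all mice were 8 weeks old on a C57BL/6 background. The wild-type channel is labelled male and the knockout channel carries no sex label. The Brdt allele (tm1a) is a knockout-first allele in which lacZ and neo cassettes within the fourth intron interrupt the gene, and Brdt encodes a bromodomain protein best known from male germ cells. The knockout pool carried Cy5 on array 1 and Cy3 on array 2.

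Each value is the log2 of knockout over wild type, with array 1 before array 2. No label states which dye stands over which, and the direction is therefore only a likely one. Its basis is that the deposited sign matched between columns for all 10 E1A spike-in rows, so both columns were read as Cy5 over Cy3 and the values of array 2 were turned. That reading assumes spike-in mixtures tied to the dyes, which no label states. Were they Cy3 over Cy5, every sign would invert, and if array 2 needed no turning, its signs alone would invert. Brdt itself was at -0.30 and -0.43, and 0 of the 31784 gene rows passed limma's adjusted threshold of 0.05. The deposited values are ratios without intensities, so neither the level of any subunit nor the presence of pituitary marker genes could be read. In a whole gland, fewer cells of a type and less RNA per cell cannot be told apart.

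GABA-A, glycine, nicotinic and 5-HT3 receptors are pentameric Cys-loop channels. The first pair pass chloride and usually quieten the cell, and the latter pair pass cations and excite it. Ionotropic glutamate receptors are tetramers of the AMPA, kainate, NMDA and delta classes. In the pituitary, GABA released by hypothalamic axons restrains prolactin secretion, and GABA-A receptors are found on melanotrophs of the intermediate lobe and on nerve terminals of the posterior lobe.

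Most subunit means lay near 0, in a share close to that of all gene rows. The mean of both arrays was within 0.2 of 0 on the log2 scale for 41 of the 60 (68.3%), against 71.3% of all gene rows. Opposite signs on the arrays cancel in such a mean. Each array alone was within 0.2 of 0 for 20 of the 60 (33.3%), against 35.4% of all gene rows. The median of the subunit means was 0.01, and that of all gene rows was 0.0025. On both arrays 18 subunits were higher in the knockout pools (30.0%, against 21.6% of all gene rows) and 8 were lower (13.3%, against 19.5%), and the other 34 had opposite signs, which is the same sign in the columns as deposited (56.7%, against 58.7% of all gene rows). With array 2 not turned, 14 were positive in both columns (background 23.3%) and 20 negative (background 35.4%). Past 1.5-fold (0.58 on the log2 scale) the same way on both arrays was 1 subunit, Gabrg1, or 1.67% of the 60, where 0.812% of all gene rows were past that size, and 0.359% of all gene rows on the higher side alone. With array 2 not turned the count was 0, against 3.17% of all gene rows.

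**Figure D1:**
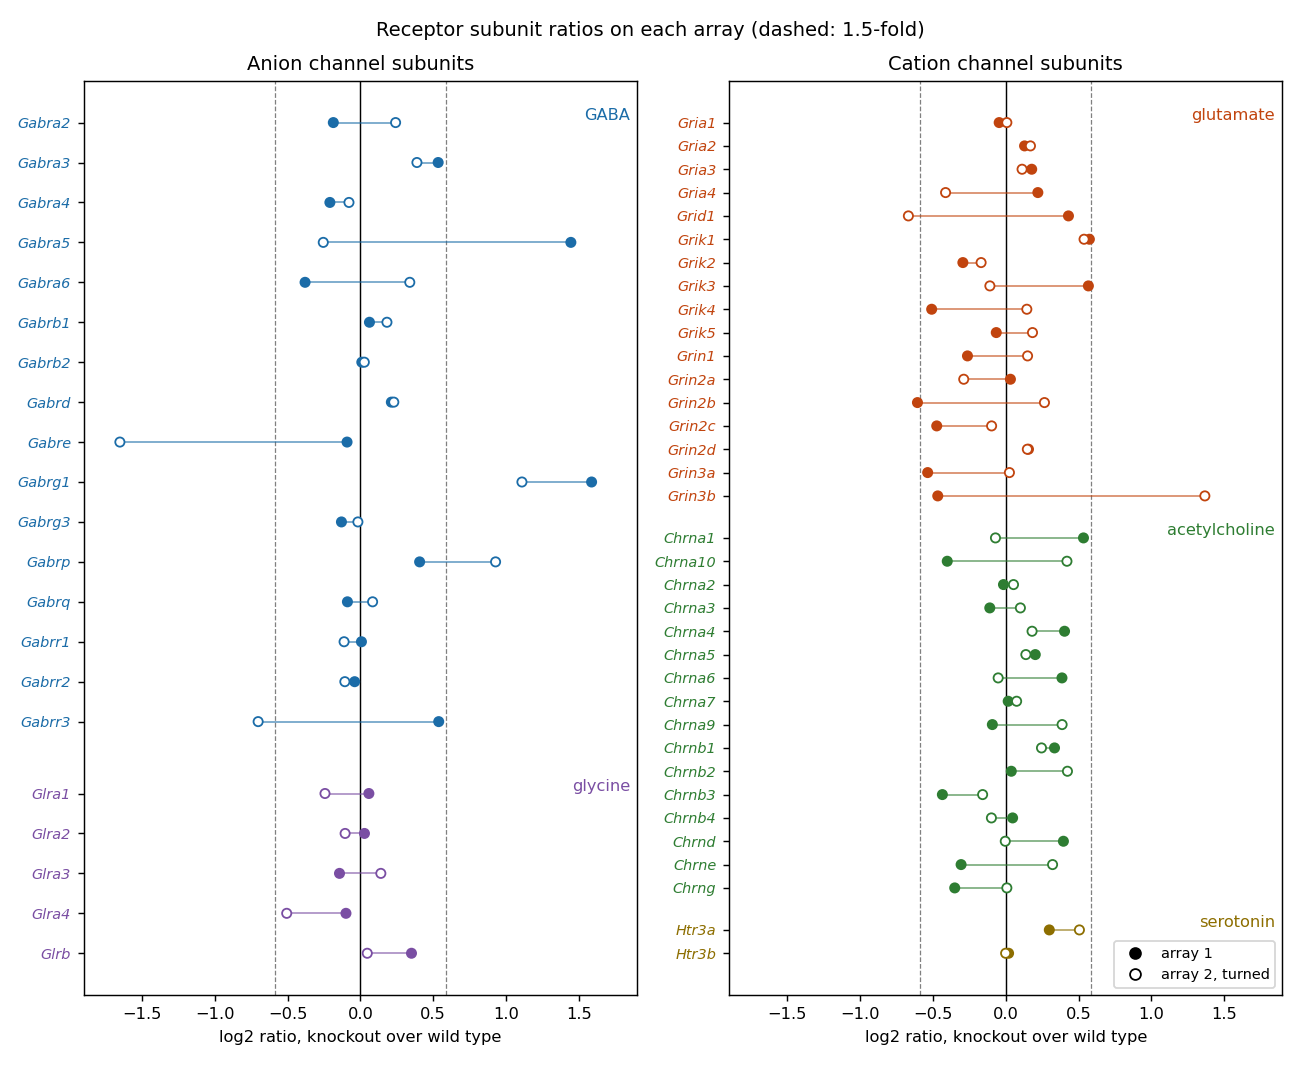
Log2 ratio of knockout over wild type for 56 of the 60 subunit genes, with array 1 as filled and array 2 (turned) as open circles, coloured by transmitter, and dashed lines at 1.5-fold. Gabrg1 has both circles right of the dashed line, at 1.59 and 1.11, while Gabre, Gabra5 and Grin3b have 1 circle far from 0 and the other near it or across it.

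Limma called 0 of the 60 at the adjusted threshold (background 0.0% of gene rows). At an unadjusted p under 0.05 it passed 3, Gabrg1, Grik1 and Gabrp, which is 5% against 2.21% of all gene rows. In the other orientation it passed 6 different subunits, 10% against 10.2%. Limma's 95% intervals lay within 2-fold of no change for 50 of the 60 subunits (83.3%, against 81.5% of all gene rows). They lay within 1.5-fold for 16 of the 60 subunits and for 10879 of the 31784 gene rows. With 2 arrays the narrowest interval reached 0.46 to either side of its mean and the median one 0.52. Smaller differences than these could thus not be told from 0 gene by gene. These intervals are unadjusted, and larger differences were not called either. At the adjusted threshold 0 of the 31784 gene rows passed, with means from -2.51 to 5.20. Flipping signs over 2 arrays gives an exact two-sided p of 0.5 at the least.

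The upstream sequences of 3 GABA-A subunit genes are shown because the first and the last carry the largest positive mean ratios of the family with array 2 turned, while the second is the direct chromosomal neighbour of the first and lay near 0. The largest positive means with array 2 not turned were those of Gabra5 (0.85) and Gabre (0.78), while Gabrg1 and Gabrp were at 0.24 and -0.26. Each is the 250 bases before a RefSeq transcript start in GRCm38.p6, read 5′ to 3′ on the strand of the gene. They are Gabrg1 (chr5:70842618-70842867, minus strand), Gabra2 (chr5:71095850-71096099, minus strand) and Gabrp (chr11:33578958-33579207, minus strand), and capitals mark CG dinucleotides.
Gabrg1: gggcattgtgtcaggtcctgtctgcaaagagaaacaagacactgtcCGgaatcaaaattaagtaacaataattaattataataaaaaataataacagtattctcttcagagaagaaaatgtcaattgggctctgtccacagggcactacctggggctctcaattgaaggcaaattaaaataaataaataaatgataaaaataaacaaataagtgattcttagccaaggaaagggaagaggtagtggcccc
Gabra2: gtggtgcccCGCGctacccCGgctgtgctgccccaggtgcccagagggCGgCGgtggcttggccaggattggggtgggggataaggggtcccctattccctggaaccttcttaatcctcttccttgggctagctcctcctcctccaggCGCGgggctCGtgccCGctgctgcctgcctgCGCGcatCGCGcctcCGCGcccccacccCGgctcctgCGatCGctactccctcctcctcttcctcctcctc
Gabrp: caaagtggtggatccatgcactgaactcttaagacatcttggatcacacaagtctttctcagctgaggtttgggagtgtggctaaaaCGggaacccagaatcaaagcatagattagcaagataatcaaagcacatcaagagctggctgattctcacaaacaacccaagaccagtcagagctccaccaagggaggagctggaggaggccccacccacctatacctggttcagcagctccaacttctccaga
The Gabrg1 window is rich in A and T, with 35.6% GC and 1 CG dinucleotide, and 7.87% of all 32851 promoter windows hold fewer. That of Gabra2 has 70.0% GC and 18 CG dinucleotides, more than 78.3% of all windows. Gabrp also has 1 CG dinucleotide but is not as rich in A and T, with 49.2% GC against a median of 52.4% over all windows.

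Windows were available for 42 of the 60 genes, 47 windows in all, with a median of 8 CG dinucleotides against 6 over all windows. In 7 of the 42 genes a window held at most 1 CG dinucleotide, and 18.8% of all windows hold fewer than 2. Their mean ratios were 1.35 for Gabrg1, 0.67 for Gabrp, 0.46 for Gabra3, 0.01 for Chrna10, 0.0078 for Chrne, 0.0097 for Htr3b and -0.07 for Gabrr2. A relation between CG content and ratio was not tested. Searched on both strands, the TATA box TATAAA was in 6 subunit windows (12.8%, against 12.4% of all windows). The cyclic AMP response element core TGACG was in 5 (10.6% against 17.8%) and the AP-1 site TGANTCA in 2 (4.26% against 6.75%). The 3 windows printed above held none of these motifs.

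Gabrg1 encodes the γ1 subunit, 1 of 3 γ subunits, which form the benzodiazepine site of GABA-A receptors together with an α subunit. It was at 1.59 and 1.11, a mean of 1.35 ± 0.34 (SD, n = 2), or 2.55-fold higher in the knockout pools. Both arrays were high. Limma gave an interval of 0.74 to 1.95, an unadjusted p of 0.0048 and an adjusted p of 0.999995. Counted by the smaller of the ratios on both arrays, 14 gene rows of 31784 lay at or above it, Gabrg1 included. Counted by the mean, 67 did. With array 2 not turned its mean was 0.24. Gabrg3, which encodes the γ3 subunit, was at -0.13 and -0.02 and did not approach γ1 on either array.

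Gabrp encodes the π subunit, known from the uterus and other peripheral tissues. It was at 0.41 and 0.93, a mean of 0.67 ± 0.37 (SD, n = 2; limma's unadjusted p = 0.043, adjusted p = 0.999995), higher on both arrays but past 1.5-fold only on array 2. Gabre, the ε subunit, was at -0.09 and -1.65, so its mean of -0.87 ± 1.10 (SD, n = 2) came almost wholly from array 2. Limma's interval for Gabre ran from -2.24 to 0.49. Gabrd, the δ subunit of extrasynaptic receptors, was nearly the same on both arrays, at 0.21 and 0.23. Gabrq, the θ subunit, was at -0.09 and 0.08.

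Among the 6 α subunits, which form the GABA site together with a β subunit, 1 was higher and 1 lower on both arrays. Gabra3 was higher at 0.53 and 0.39, below 1.5-fold on each, and Gabra4 was lower at -0.21 and -0.08. Gabra5 stood out on array 1 alone, at 1.44 and -0.25. Gabra2 and Gabra6 each had a negative ratio on array 1 and a positive one on array 2, with sizes from 0.19 to 0.38. Of the β subunits, Gabrb1 was at 0.06 and 0.18 and Gabrb2 at 0.01 and 0.03, near 0 on both arrays. Of the ρ subunits, best known from the retina, Gabrr1 and Gabrr2 stayed within 0.12 of 0 on both arrays. Gabrr3 was at 0.54 and -0.70, and its deposited values had the same sign in both columns.

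The columns as deposited had the same sign in 8 of the 19 GABA subunits (42.1%) and in 58.7% of all gene rows, a difference that was not tested. As a description across these genes, which share both arrays, Pearson's r of array 1 with turned array 2 was 0.26 over the 19. It was -0.04 without Gabrg1 and -0.22 without Gabrg1 and Gabre, so the positive value rests on Gabrg1. Spearman's rho over the 19 was 0.06. Over all 60 subunits r was 0.02, and -0.16 without Gabrg1. Over all gene rows it was -0.26.

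**Figure D2:**
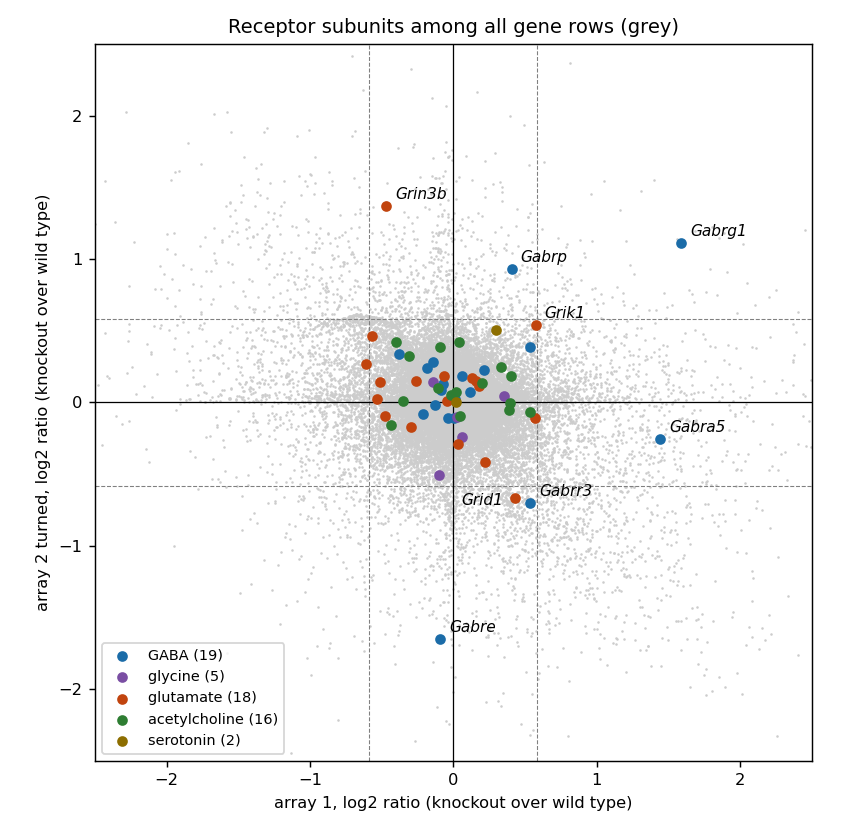
Log2 ratio of knockout over wild type on array 1 (horizontal) and turned array 2 (vertical), with the 60 subunit genes coloured by transmitter over all gene rows in grey and dashed lines at 1.5-fold. Gabrg1 is the only coloured point past both lines in the upper right corner, and 91 gene rows lie outside the axes, which end at 2.5.

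Genes for receptor subunits often lie side by side, and 25 of the 60 fall into 9 groups of neighbours of the same transmitter with at most 1 other protein-coding gene between them. Gabrg1 lies on chromosome 5 beside Gabra2, Gabra4 and Gabrb1. The neighbours' means were 0.03, -0.14 and 0.12, against 1.35 for Gabrg1, so its ratio was not shared along the group. On chromosome 7, Gabra5 had a mean of 0.59 while its neighbour Gabrg3 was at -0.07. On the X chromosome, Gabre, Gabra3 and Gabrq follow each other in that order, and their means were -0.87, 0.46 and -0.0027. On chromosome 11, Gabra6 and Gabrb2 both had a mean near 0, of -0.02 and 0.02.

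**Figure D3:**
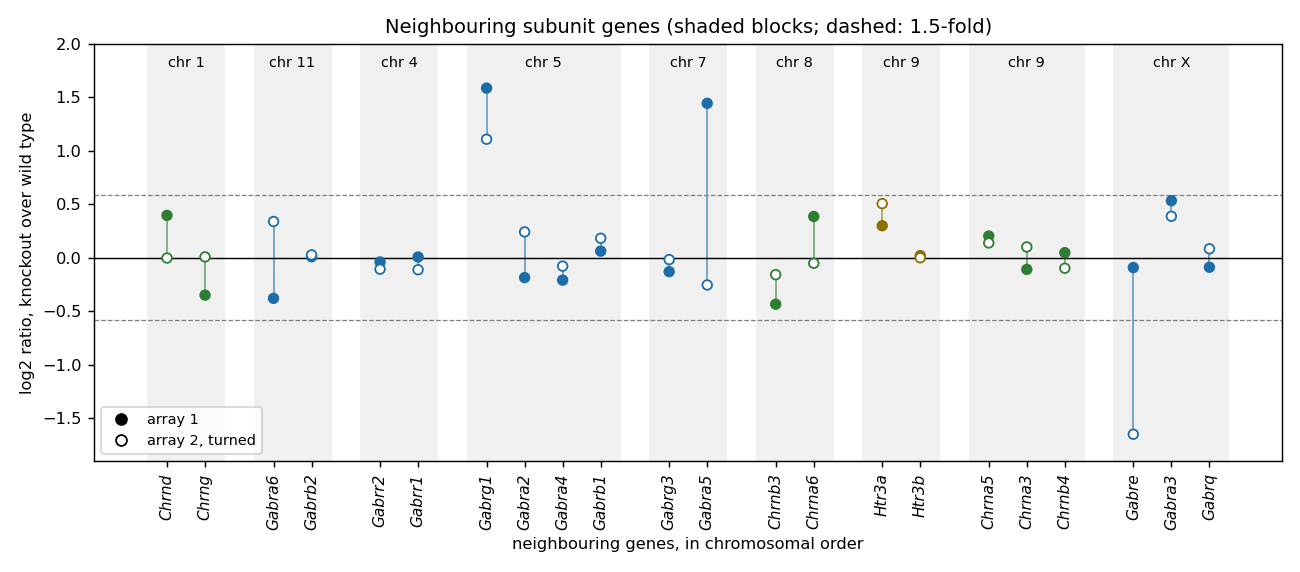
Log2 ratio of knockout over wild type for 22 of the 25 subunit genes that lie beside another of the same transmitter, in chromosomal order within 9 shaded groups, with array 1 filled, array 2 (turned) open and dashed lines at 1.5-fold. Gabrg1 on both arrays and Gabra5 on array 1 depart upward from neighbours that lie near 0. Gabre departs downward on array 2, at -1.65, beside Gabra3 at 0.39 and Gabrq at 0.08.

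Glycine receptor subunits had means from -0.30 to 0.20, with the largest in size for Glra4. It was at -0.10 and -0.51, a mean of -0.30 ± 0.29 (SD, n = 2; limma's interval -0.87 to 0.26). Glrb, the β subunit that gephyrin anchors at synapses, was at 0.35 and 0.05, a mean of 0.20 ± 0.21 (SD, n = 2). Glra1, the main adult α subunit of the spinal cord, was at 0.06 and -0.24, a mean of -0.09. Glra2 was at 0.03 and -0.10 and Glra3 at -0.14 and 0.14. No glycine subunit passed 1.5-fold on either array, where 13.8% of all gene rows did on array 1 and 9.19% on array 2.

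Of the 18 glutamate receptor subunits, 4 were higher (22.2%, against 21.6% of all gene rows) and 2 lower (11.1%, against 19.5%) on both arrays. Grik1, a kainate receptor subunit, had near-identical ratios on the arrays, 0.57 and 0.54. Its mean was 0.56 ± 0.03 (SD, n = 2), 1.47-fold higher in the knockout pools, with a limma interval of 0.10 to 1.01, an unadjusted p of 0.030 and an adjusted p of 0.999995. It fell just short of the 1.5-fold threshold on both arrays, and it was the subunit nearest to Gabrg1 by the smaller of the ratios. With array 2 not turned its mean was 0.02. Grik2 was lower on both arrays, at -0.29 and -0.17. Grik3 was at 0.57 and -0.11. Grik4 and Grik5, which form channels only together with one of Grik1 to Grik3, were at -0.51 and 0.15 and at -0.06 and 0.18.

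Of the 7 NMDA receptor subunits, 1 was higher and 1 lower on both arrays. Grin1, the obligatory subunit, was at -0.26 and 0.15. Grin2b was at -0.61 and 0.27 and Grin2c at -0.47 and -0.10, a mean of -0.29 ± 0.27 (SD, n = 2) for the latter. Grin2a was at 0.03 and -0.29 and Grin2d at 0.16 and 0.15. Grin3a and Grin3b, subunits that bind glycine and lower calcium flow through the channel, were at -0.54 and 0.03 and at -0.47 and 1.37. The spread of Grin3b between arrays was the widest of the 60, with a mean of 0.45 ± 1.30 (SD, n = 2). It was negative in both deposited columns, with a mean of -0.92 when array 2 was not turned.

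AMPA receptor subunits, which carry most fast excitation in the brain, lay near 0 in 3 of 4 genes. Gria2, whose edited form blocks calcium entry, was at 0.13 and 0.17, Gria3 at 0.18 and 0.11, and Gria1 at -0.04 and 0.0079. Gria4 was at 0.22 and -0.41. Grid1, which encodes a δ subunit, was at 0.43 and -0.67, on opposite sides of 0. In the columns as deposited it kept its sign, with a mean of 0.55, and limma's unadjusted p in that orientation was 0.029 (adjusted p = 0.465). Gabrr3, Gabra6, Chrna10 and Chrne were also past an unadjusted p of 0.05 there. None of the 6 passed in the turned orientation, where their means lay between -0.12 and 0.01.

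Nicotinic acetylcholine receptor subunits did not reach 1.5-fold on either array in any of the 16 genes. Of all gene rows, 13.8% did on array 1 and 9.19% on array 2. On both arrays 5 were higher (31.25%, against 21.6% of all gene rows) and 1 lower (6.25%, against 19.5%). With array 2 not turned, 4 were positive and 6 negative in both columns, against 23.3% and 35.4% of all gene rows. Chrna4, which pairs with Chrnb2 in the main brain receptor, was at 0.40 and 0.18, a mean of 0.29 ± 0.16 (SD, n = 2), and Chrnb2 was at 0.04 and 0.42. Chrnb3 was the single gene lower on both, at -0.43 and -0.16, a mean of -0.30 ± 0.20 (SD, n = 2), and its neighbour Chrna6 was at 0.39 and -0.05. The ganglionic subunits Chrna3 and Chrnb4 were at -0.11 and 0.10 and at 0.05 and -0.10, and Chrna5, encoded beside them, was at 0.20 and 0.14. Chrna7, which forms receptors on its own, was at 0.02 and 0.08. Chrna9 and Chrna10, partners in cochlear hair cells, were at -0.09 and 0.39 and at -0.40 and 0.42, and Chrna2 was at -0.02 and 0.05.

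The muscle endplate receptor is built from Chrna1, Chrnb1, Chrnd and either Chrng before birth or Chrne in the adult. Chrnb1 was at 0.34 and 0.25, a mean of 0.29 ± 0.06 (SD, n = 2), and it alone of these genes kept its sign on both arrays. Chrna1 was at 0.53 and -0.07 and Chrnd at 0.40 and -0.0029. Chrne was at -0.31 and 0.32 and Chrng at -0.35 and 0.0079. Of 13 skeletal muscle markers, 5 were lower (38.5%, against 19.5% of all gene rows) and 2 higher (15.4%, against 21.6%) on both arrays. The other 6 had opposite signs. The creatine kinase gene Ckm, at -0.95 and -1.43, was the only 1 of the 13 past 1.5-fold the same way on both arrays. The 2 higher markers were Myh4 at 0.30 and 0.26 and Acta1 at 0.02 and 0.04. In the other orientation, with array 2 not turned, 5 of the 13 were positive and 1 negative in both columns, against 23.3% and 35.4% of all gene rows. The median mean of the 13 was then 0.10 in place of -0.10, and the mean of Ckm was 0.24. With array 2 turned, 1 of the 5 endplate receptor genes was higher on both arrays (20%, against 21.6% of all gene rows). Opposite signs were found in 4 (80%, against 58.9%), and 0 were lower on both (against 19.5%). The part of muscle RNA in their values was not tested.

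The serotonin-gated 5-HT3 receptor has a subunit that forms channels alone, Htr3a, and a partner that does not, Htr3b. Htr3a was at 0.30 and 0.51, a mean of 0.40 ± 0.15 (SD, n = 2; limma's interval -0.08 to 0.89). Htr3b was at 0.02 and -0.0004, near 0 on both arrays. Both genes lie side by side on chromosome 9.

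**Figure D4:**
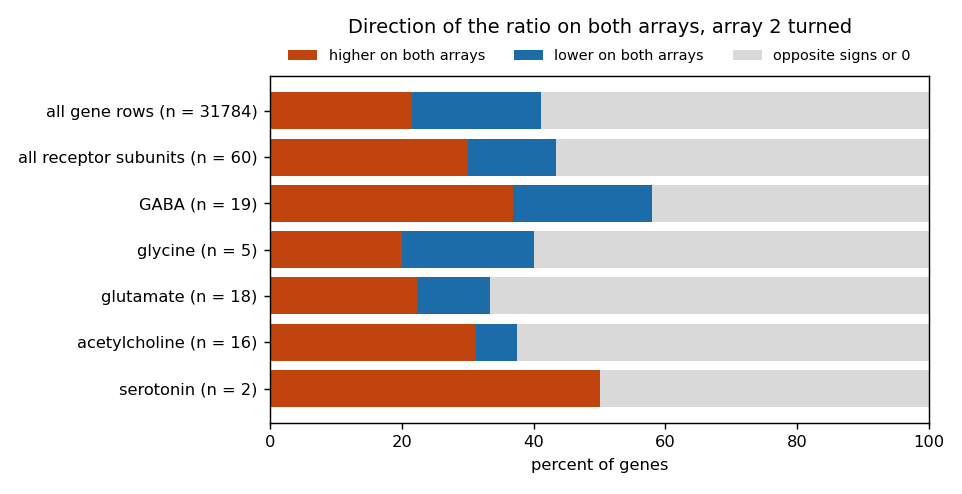
Percent of genes higher in the knockout pools on both arrays, lower on both, or of opposite sign, for all 31784 gene rows, all 60 receptor subunits and each transmitter. The GABA bar has the smallest grey share, 42.1%, among the sets with over 2 genes.

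Genes that make, carry or respond to the same transmitters were listed beside the receptors, and limma's adjusted threshold passed 0 of them. For comparison, 21.6% of all gene rows were higher and 19.5% lower on both arrays. Among 19 GABA partners, 4 were higher (21.1%) and 3 lower (15.8%) on both arrays, with a median mean of 0.05. The GABA-synthesising enzyme gene Gad1 was at 1.204 and -0.82, Gad2 at 0.05 and 0.03, and the GABA transporter gene Slc6a13 at 0.07 and 0.94. Gabbr2, a subunit of the metabotropic GABA-B receptor, was at -1.001 and 0.30. Among 42 glutamate partners, 11 were higher (26.2%) and 8 lower (19.0%) on both arrays, with a median mean of 0.03. Cacng4, an auxiliary subunit of AMPA receptors, was at 0.63 and 0.57. Homer1, a scaffold of metabotropic glutamate receptors whose short form is induced by activity, was at -1.26 and -0.43.

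Of 8 glycine partners measured, 2 were higher (25%) and 1 lower (12.5%) on both arrays, against 21.6% and 19.5% of all gene rows. Shmt1 was at -0.22 and -0.12 and Dao at -0.40 and 0.84. Among 20 acetylcholine partners, 5 were higher (25%) and 5 lower (25%). With array 2 turned, the only partner gene past 1.5-fold the same way on both arrays was Lrp4, the agrin receptor of the endplate, at 0.73 and 0.65, a mean of 0.69 ± 0.05 (SD, n = 2; limma's unadjusted p = 0.016, adjusted p = 0.999995). Its mean was 0.04 with array 2 not turned, and the partner genes past that size the same way in both columns were instead Gad1, Htr1d and Htr1f, with means of 1.01, 0.79 and -1.10. Dok7, which activates the endplate kinase MuSK, was at 1.19 and 0.40, while Musk itself was at -0.43 and -0.20 and Rapsn, which clusters the receptor, at -0.14 and -0.32. Among 19 serotonin partners, 4 were higher (21.1%) and 3 lower (15.8%). The receptor gene Htr7 was at 0.57 and 0.56 and the transporter gene Slc6a4 at 1.22 and -0.12. The 7 ATP-gated channel genes had a median mean of -0.05, with P2rx6 at 0.23 and 0.40 and P2rx2 at 0.64 and -0.05.

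Markers of other cells that a dissected gland could hold were read on the same scale. Of all gene rows, 21.6% were higher and 19.5% lower on both arrays. Of 10 neuron and axon markers, 2 were higher (20%) and 2 lower (20%). Nefl was at 0.73 and 0.09 and Nefm at 0.19 and 0.31, and the means of the 10 ran from -0.13 to 0.41. Of 7 hypothalamic neurosecretory genes 2 were higher (28.6%), Avp at 0.57 and 0.41 and Oxt at 0.14 and 0.27, and 0 were lower. The other 5 had opposite signs, among them Sst at 0.68 and -0.96 and Gnrh1 at 0.47 and -0.73. The median mean of the 7 was -0.01. Of 7 pituicyte and astroglia markers 2 were higher (28.6%) and 1 lower (14.3%), with Gfap at 1.11 and -0.39. Neutrophil markers were higher on both arrays in 7 of 9 genes (77.8%), with medians of 3.50 and 0.47. Red blood cell markers were higher on both in 4 of 6 (66.7%), with medians of 0.16 and 1.16. In the columns as deposited, 1 of the 9 neutrophil markers was positive in both columns and 0 were negative, and of the 6 red blood cell markers 0 were positive and 2 negative. The shares of all gene rows there were 23.3% positive and 35.4% negative. The median mean with array 2 not turned was 1.45 in place of 1.88 for the neutrophil list and -0.50 in place of 0.69 for the red blood cell list. Of the gland's own genes, 1 of 7 anterior lobe hormone genes was higher (Fshb, 14.3%) and 1 lower (Pomc, 14.3%). Of 8 transcription factor genes 3 were higher (37.5%) and 1 lower (12.5%). The part of any of these cell types in the ratio of Gabrg1 or of another subunit was not tested.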

How the data were processed

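Two-colour array ratios of pituitary RNA from Brdt-/- and wild-type pools were used. Per the labels' protocols, Agilent's low-input kit served to amplify and label the RNA. The deposited values are signed fold changes (ratios of 1 channel over the other), a score scale read from the values, since no value lay between -1 and 1. The authors' correction, normalization and probe summary have no description in the sources used here. Signed folds were converted to log2 with the sign kept, 56 control rows were left out, and array 2 was turned, which is called likely only. An intercept was fitted with limma 3.58.1 (R 4.3.3; lmFit, eBayes; residual degrees of freedom: 1) to all 31784 gene rows with Benjamini-Hochberg adjustment, and was tested on simulated data. That pools came from separate mice is stated, so the spread is between pools, arrays and dyes. With the dyes exchanged, any dye effect on a gene enters that spread. A dye term was not fitted, since no residual degrees of freedom would remain.

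The symbol rule reads no measured value, but the family, its members and the lists were chosen with earlier results of these data known. Subunits are given by their values, apart from 4 that are counted but not reported here by name. A rule picked 14 subunits for closer description, though not every statistic is printed for each. It takes the 3 subunits with the largest mean in size per transmitter and those past 1.5-fold the same way on both arrays in either orientation. Of partner lists, genes past 1.5-fold the same way are named, or the 2 with the largest mean where there are fewer than 2. Other named genes were chosen after their values were seen. Slc6a5 and Rbfox3 were not analysed here. Promoter windows and gene order come from RefSeq (GRCm38.p6), while no build is named for the arrays. Alternatives were the orientation of array 2, centring, scaling, fold threshold, prior and each array alone.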

Additional observations from a re-analysis of the deposited data

How the results depend on the processing

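Centring each array on its median and scaling both to the same median absolute deviation left the limma count at 0 and the 1.5-fold count at 1. The means of all 14 subunits picked by the rule above kept their sign. A robust prior, run for the limma count alone, also gave 0. The limma count became 3 at an unadjusted p under 0.05. The 1.5-fold count was 0 with array 2 not turned, 5 at 1.2-fold, 1 at 2-fold, and 3 to 6 when either array stood alone. Subunits higher on both arrays numbered 14 with array 2 not turned, and 32 to 38 were higher on a single array. Those lower on both numbered 20 with array 2 not turned, and 22 to 28 on a single array. The median of the subunit means of 0.014 was 0.013 to 0.079 on single arrays, and their mean was 0.066. Leaving array 2 not turned inverts, by construction, that array alone. The means of 6 of the 14 subunits picked by the rule then reversed. They became 0.78 for Gabre, -0.26 for Gabrp, 0.15 for Glra1, 0.20 for Glra4, -0.92 for Grin3b and -0.10 for Htr3a. Reversals outside the 14 were not counted, and Gabrr3, for example, went from -0.08 to 0.62. No paired analysis was possible because the fit is already paired within arrays. A limma test on 1 array was not run, since no residual degrees of freedom remain. Without intensities, no filter on dim probes could be tried.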
